A study of Mus musculus with 10 samples.

Results

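The genes described here handle retinoids, the vitamin A derivatives, in adipocyte precursors (APs), the fat-resident cells that give rise to adipocytes. They are 9 of the 18384 genes listed in the mRNA-seq files, taken by symbol for their role, at a time when earlier results of these data were known: the retinaldehyde dehydrogenases Aldh1a1, Aldh1a2 and Aldh1a3, the carrier Rbp4 and its receptor Stra6, the retinoic acid-binding proteins Crabp1 and Crabp2, the retinaldehyde reductase Dhrs3, and the retinoic acid hydroxylase Cyp26b1. The APs came from the subcutaneous white fat of C57BL/6J mice and were enriched on magnetic columns, where cells bearing CD45 or CD31 were discarded and those bearing SCA-1 were kept. For mRNA-seq, 3 control cultures (replicates 1 to 3), grown without the cytokine, were compared with 3 IL-4 cultures (replicates 4 to 6). The latter were kept for 4 days with interleukin-4 (IL-4), a cytokine of type 2 immune responses, which was added the day after seeding. The labels name no transgene or deletion for either group, and whether each culture came from different mice is not given in the sources used here, so the p-values measure the spread between these 6 cultures.

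Retinol reaches cells bound to RBP4, and STRA6 is the membrane receptor that takes it up. Inside the cell, retinol is oxidized to retinaldehyde and DHRS3 reduces it back, whereas the ALDH1A enzymes oxidize retinaldehyde irreversibly to retinoic acid. CRABP1 and CRABP2 carry retinoic acid within the cell, CYP26 enzymes hydroxylate it for removal, and the remainder acts through nuclear receptors (RARs with RXRs) on target genes. White fat is a known store of retinoids, and adipocytes are a known source of circulating RBP4.

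Of the 9 genes, 8 had enough reads to be tested, and 7 of these 8 rose with IL-4 while 1, Crabp1, fell at an adjusted p under 0.05 (quasi-likelihood test of edgeR, p-values adjusted by Benjamini-Hochberg across the 14009 genes tested). Across all genes tested, the same test called 19.0% higher and 18.4% lower, which is background and no independent test of genes chosen with results known. In counts normalized for library scale, the 3 IL-4 cultures lay above the 3 control cultures for the same 7 genes and below them for Crabp1, and such a lack of overlap was seen for 25.2% of all genes upward and 25.3% downward. With a log2 fold change beyond 1 required as well, 5 of the genes were higher (Rbp4, Aldh1a3, Aldh1a2, Aldh1a1 and Dhrs3) and 1 was lower (Crabp1), against 5.77% and 5.26% of all genes tested. The median log2 fold change was 1.06 over the 8 tested genes and 0.0026 over all genes. Levels are given below as FPKM, the fragment number scaled by transcript length and sequencing depth that the authors computed, which allow genes of different length to be set side by side, and fold changes come from the fit to read counts.

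**Figure D1:**
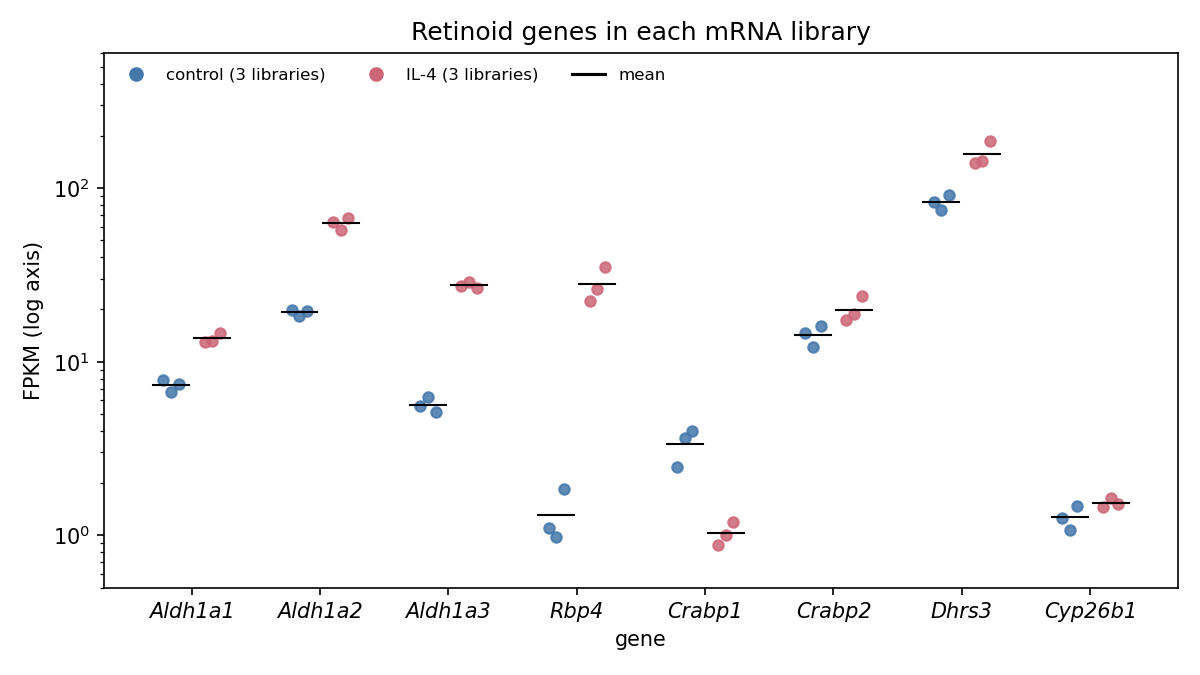
FPKM of the retinoid genes in each library (log axis), with control replicates 1 to 3 and IL-4 replicates 4 to 6 as points and group means as lines; Stra6, with at most 3 reads in any library, is left out. The groups are far apart for Rbp4 (0.98 to 1.86 against 22.39 to 35.27 FPKM) and overlap for Cyp26b1.

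The promoters were searched for TTC and GAA spaced by 4 bases of any kind, the palindrome known to bind STAT6, the transcription factor that the IL-4 receptor activates. RefSeq windows of 250 bases before to 50 bases after the annotated start (GRCm38.p6) were at hand for 7 of the genes, in 14 windows. Aldh1a3 and Crabp2 had no window and were not searched. A match was found near starts of 2 genes, Rbp4 and Dhrs3, at 1 site each, where the Dhrs3 site falls in 2 overlapping windows so that 3 of the 14 windows hold a match. Of the 32851 windows of all genes, some of which overlap in the same way, 6.95% hold such a match. The motif reads the same in form on both strands, so each match counts once. The Rbp4 match lies 120 to 111 bases before the upstream start and in no annotated feature, with the 30 bases shown on the minus strand at chr19:38125422-38125451. The Dhrs3 match lies 119 to 110 bases before one annotated start and inside an exon of longer Dhrs3 transcripts, with no coding sequence there, and the 30 bases shown are on the plus strand at chr4:144892948-144892977. They are shown because these are the only matches among the genes searched, with the motif in capitals, 5′ to 3′ on the strand of the gene.
Rbp4: caggttgcgtTTCTAGAGAAtatttaacag
Dhrs3: ccctttctttTTCTGGAGAAagttggaggg
Neither the shorter palindrome TTCNNNGAA nor AGGTCA, the consensus half-site of retinoid receptors, was found in the 14 windows on either strand; they occur in 8.3% and 16.3% of all windows. Direct repeats of retinoid half-sites spaced by 5, 2 or 1 bases (DR5, DR2 and DR1) were not found either, and these occur in 0.0974%, 0.268% and 0.222% of all windows. A match is a string of letters and not a measured binding site.

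RBP4, the serum carrier of retinol, had the largest rise of the group. Its gene (Entrez 19662) lies on chromosome 19 from 38116620 to 38125321. Rbp4 measured 1.1, 0.98 and 1.86 FPKM in control replicates 1, 2 and 3, and 22.39, 26.39 and 35.27 FPKM in IL-4 replicates 4, 5 and 6. Every IL-4 culture was above every control culture, and the means were 1.31 ± 0.477 and 28.0 ± 6.59 FPKM (SD, n = 3 each). The control values rest on 27, 24 and 46 reads, and the IL-4 values on 557, 659 and 888. The log2 fold change was 4.58 (SE 0.25, 95% confidence interval 4.01 to 5.16, adjusted p = 4.54e-06 in edgeR), or 24.0-fold, which ranked 75 from the top among all genes tested. Control replicate 3, the highest control, also held the most reads of Arg1, a gene that responds strongly to IL-4 (169 against 64 and 62 in control replicates 1 and 2). Its summed FPKM of macrophage markers, described below, was the highest of the controls as well (3934 against 3094 and 3070). A link of either to Rbp4 was not tested. Without control replicate 3 the log2 fold change of Rbp4 was 4.91. Stra6, the receptor for this carrier (Entrez 20897, chromosome 9 from 58063793 to 58154004), was hit by 3, 0 and 0 reads in control replicates 1, 2 and 3 and by 1, 3 and 0 reads in IL-4 replicates 4, 5 and 6. At 3 reads or fewer in every library its level was too low for a comparison.

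All 3 retinaldehyde dehydrogenases, which make retinoic acid, rose with IL-4. Aldh1a3 (Entrez 56847, chromosome 7 from 66390892 to 66427477) measured 5.57, 6.23 and 5.16 FPKM in control replicates 1, 2 and 3, and 27.34, 28.62 and 26.63 FPKM in IL-4 replicates 4, 5 and 6. The groups lay far apart, at 5.65 ± 0.540 and 27.5 ± 1.01 FPKM (SD, n = 3 each), and the log2 fold change was 2.46 (SE 0.09, 95% confidence interval 2.25 to 2.66, adjusted p = 6.09e-07 in edgeR), or 5.49-fold. Aldh1a2 (Entrez 19378, chromosome 9 from 71215789 to 71296243), which in embryos makes most retinoic acid, was the most abundant of the 3 in both groups. Its level was 19.89, 18.28 and 19.72 FPKM in the control cultures and 63.8, 57.42 and 67.0 FPKM in the IL-4 cultures. Again no culture of one group reached into the other, with means of 19.3 ± 0.885 and 62.7 ± 4.88 FPKM and a log2 fold change of 1.87 (SE 0.07, 95% confidence interval 1.71 to 2.04, adjusted p = 7.14e-07 in edgeR), or 3.67-fold. Aldh1a1 (Entrez 11668, chromosome 19 from 20492583 to 20643463) measured 7.89, 6.67 and 7.47 FPKM in the control cultures and 13.0, 13.19 and 14.72 FPKM in the IL-4 cultures. It had the smallest rise of the 3, again without overlap, from 7.34 ± 0.620 to 13.6 ± 0.943 FPKM, with a log2 fold change of 1.07 (SE 0.08, 95% confidence interval 0.87 to 1.26, adjusted p = 3.35e-05 in edgeR), or 2.09-fold. Its span shares 63696 bases with the long noncoding RNA E030003E18Rik, which itself had 46 to 64 reads in control cultures and 98 to 116 in IL-4 cultures.

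The 3 enzymes differed in how far they moved, so their shares of the summed level changed. The sum of their FPKM was 33.35, 31.18 and 32.35 in the control cultures and 104.1, 99.23 and 108.3 in the IL-4 cultures, a ratio of means of 3.22. Aldh1a2 held 59.7% ± 1.17 of that sum in the control cultures and 60.3% ± 2.15 in the IL-4 cultures (SD, n = 3 each), a difference of 0.58 percentage points (exact two-sided permutation test, p = 0.7), and the sign of this difference turned without IL-4 replicate 6 or with read counts in place of FPKM. The share of Aldh1a3 was 17.5% ± 2.14 in the control cultures and 26.6% ± 2.15 in the IL-4 cultures, and that of Aldh1a1 was 22.7% ± 1.18 and 13.1% ± 0.571. The shares of Aldh1a3 and of Aldh1a1 did not overlap between the groups, and each gave p = 0.1 in the exact two-sided permutation test, the smallest that 3 against 3 cultures allow.

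**Figure D2:**
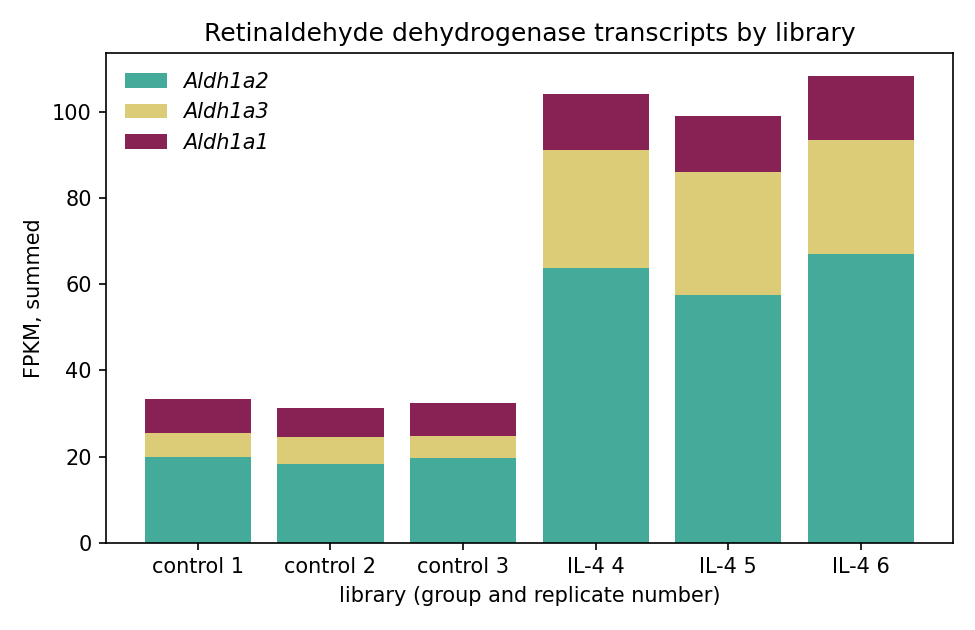
Stacked bars of the FPKM of Aldh1a2 (bottom), Aldh1a3 (middle) and Aldh1a1 (top) in each of the 6 libraries, on an axis that starts at 0. The full bars stand between 31.18 and 33.35 FPKM in control cultures and between 99.23 and 108.3 FPKM in IL-4 cultures, and Aldh1a2 is the tallest segment in each.

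Dhrs3 (Entrez 20148, chromosome 4 from 144892534 to 144928209), which returns retinaldehyde to retinol and is known to be induced by retinoic acid, was the most abundant of the 9 genes in both groups. It measured 83.15, 75.02 and 91.81 FPKM in control replicates 1, 2 and 3, and 138.63, 143.2 and 186.61 FPKM in IL-4 replicates 4, 5 and 6. The lowest IL-4 culture was above the highest control culture, and the means were 83.3 ± 8.40 and 156 ± 26.5 FPKM (SD, n = 3 each). The log2 fold change was 1.05 (SE 0.11, 95% confidence interval 0.80 to 1.30, adjusted p = 0.00015 in edgeR), or 2.07-fold. That value sits at the fold threshold, and it was 0.93 without IL-4 replicate 6, 0.99 without control replicate 2 and 0.88 when libraries were scaled by their totals alone. The Dhrs3 locus lies within the span of Vps13d on the other strand, and the protocol does not state that the strand was kept. Reads of Vps13d overlapped between the groups (2207 to 3076 in control cultures, 2173 to 3265 in IL-4 cultures). The ratio of summed Aldh1a to Dhrs3 FPKM was 0.401, 0.416 and 0.352 in the control cultures and 0.751, 0.693 and 0.581 in the IL-4 cultures, with no overlap (exact two-sided permutation test, p = 0.1, the smallest possible).

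The retinoic acid-binding proteins moved in opposite directions. Crabp1 (Entrez 12903, chromosome 9 from 54764748 to 54773110) measured 2.48, 3.64 and 4.0 FPKM in the control cultures and 0.88, 1.01 and 1.19 FPKM in the IL-4 cultures. Each control culture was above each IL-4 culture, with 53, 78 and 86 reads against 19, 22 and 26. Crabp1 fell from 3.37 ± 0.794 to 1.03 ± 0.156 FPKM (SD, n = 3 each), with a log2 fold change of -1.54 (SE 0.24, 95% confidence interval -2.09 to -0.98, adjusted p = 0.00143 in edgeR), or 2.90-fold lower. Crabp2 (Entrez 12904, chromosome 3 from 87948693 to 87953372), known for handing retinoic acid to its receptors, measured 14.68, 12.14 and 16.11 FPKM in the control cultures and 17.28, 18.75 and 23.88 FPKM in the IL-4 cultures. The groups were close but did not overlap, at 14.3 ± 2.01 and 20.0 ± 3.47 FPKM, and the log2 fold change was 0.66 (SE 0.14, 95% confidence interval 0.33 to 0.98, adjusted p = 0.00706 in edgeR), or 1.58-fold. The FPKM of Crabp2 was 5.92, 3.34 and 4.03 times that of Crabp1 in the control cultures and 19.6, 18.6 and 20.1 times in the IL-4 cultures. Neither gene overlapped between the groups and they moved in opposite directions, so these ratios could not overlap and are no further test.

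Cyp26b1 (Entrez 232174, chromosome 6 from 84571414 to 84593908), the retinoic acid hydroxylase, changed least of the 8 tested genes. It measured 1.26, 1.07 and 1.48 FPKM in the control cultures and 1.46, 1.65 and 1.52 FPKM in the IL-4 cultures. In FPKM control replicate 3 was above IL-4 replicate 4, whereas normalized counts, that is reads divided by the fitted library scale, ran from 135 to 185 in the control cultures and from 210 to 237 in the IL-4 cultures. The log2 fold change was 0.46 (SE 0.13, 95% confidence interval 0.16 to 0.76, adjusted p = 0.0264 in edgeR). This call was lost under 6 of 12 other settings, with adjusted p between 0.0838 and 0.118 in them, among them scaling by library totals and leaving out control replicate 1, control replicate 2 or IL-4 replicate 5. The summed FPKM of the Aldh1a genes was 25.8 ± 3.68 times that of Cyp26b1 in the control cultures and 67.6 ± 6.45 times in the IL-4 cultures (SD, n = 3 each).

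**Figure D3:**
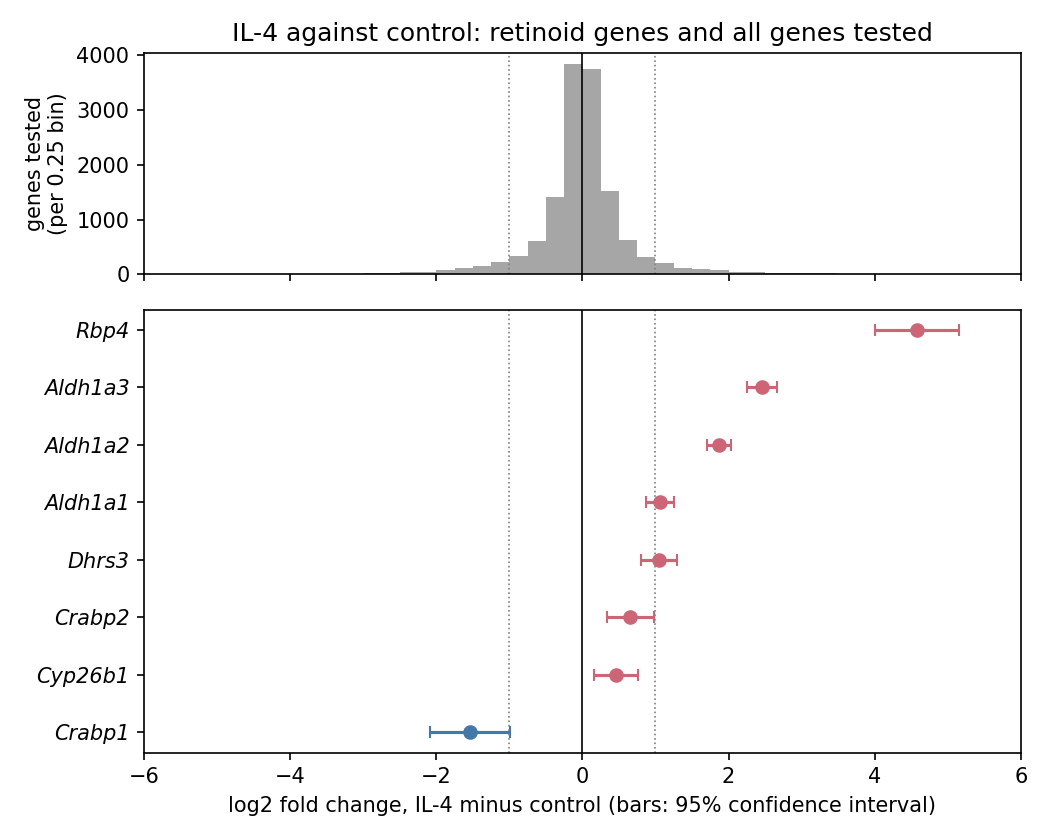
Log2 fold change with IL-4 of the 8 tested retinoid genes with 95% confidence intervals (lower panel, red higher and blue lower), under a histogram of the same value over the genes tested (genes beyond the axis are not drawn); dotted lines mark a log2 fold change of 1 in either direction. In all, 7 points lie to the right of 0, from Cyp26b1 at 0.46 to Rbp4 at 4.58, and Crabp1 lies to the left at -1.54.

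The order of levels differed between the groups, with mean Rbp4 above mean Aldh1a1, Aldh1a3, Crabp1 and Crabp2 only in the IL-4 cultures. Its mean was close to that of Aldh1a3 there (28.0 and 27.5 FPKM). Rbp4 was below Aldh1a3 in IL-4 replicates 4 and 5 and above it in IL-4 replicate 6. In the control cultures mean FPKM ran from Dhrs3 through Aldh1a2, Crabp2, Aldh1a1, Aldh1a3 and Crabp1 to Rbp4 and Cyp26b1, with Stra6 last, and the values of Rbp4 and Cyp26b1 overlapped. In the IL-4 cultures the order was Dhrs3, Aldh1a2, Rbp4, Aldh1a3, Crabp2, Aldh1a1, Cyp26b1, Crabp1 and Stra6, and only Rbp4 and Aldh1a3 overlapped among neighbours. The summed FPKM of all 9 genes was 124 to 148 in the control cultures and 285 to 357 in the IL-4 cultures.

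The genes whose pattern over the 6 libraries lay nearest that of Rbp4, by Euclidean distance of centred log2 counts scaled to library size, were Ms4a4a (distance 0.334), Pla2g5 (0.389) and Tpsg1 (0.441). Ms4a4a, a membrane protein of the MS4A family, measured 0.87, 0.6 and 1.24 FPKM in the control cultures and 15.53, 17.81 and 20.6 FPKM in the IL-4 cultures. Pla2g5, a secreted phospholipase, measured 0.07, 0.07 and 0.18 FPKM and then 2.79, 2.76 and 3.5 FPKM. Tpsg1 measured 0.0, 0.0 and 0.03 FPKM and then 1.05, 1.8 and 1.81 FPKM. Its fitted log2 fold change was 6.96, larger than that of Rbp4. The distances used log2 values with a small count added, which narrows the changes of genes with few reads. The likeness follows from how these genes were picked.

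Among 35 other genes of retinoid handling, which oxidize, bind, esterify or take up retinoids, 20 could be tested, of which 7 rose and 4 fell with IL-4 (edgeR, adjusted p under 0.05), with a median log2 fold change of 0.08, against 19.0% higher, 18.4% lower and a median of 0.0026 over all genes tested. With library totals, or limma on log2(FPKM + 1), 4 rose and 7 fell. Those settings also called more of all 14009 genes lower: 1704 higher and 4963 lower with library totals, and 1688 and 4925 with limma. The largest change was in Dhrs9, a dehydrogenase of retinol, with 2.1, 2.13 and 1.9 FPKM in the control cultures and 16.78, 17.36 and 14.09 FPKM in the IL-4 cultures. All 3 IL-4 cultures were far above the control cultures, and its log2 fold change was 3.15 (SE 0.12, adjusted p = 6.57e-07 in edgeR). Beyond a log2 fold change of 1 there were also Rdh5, an 11-cis-retinol dehydrogenase (1.79, adjusted p = 0.000104), Stra6l, a receptor for RBP4 related to STRA6 (1.53, adjusted p = 0.000752), and Bco1, which cleaves β-carotene (1.77, adjusted p = 0.00149). These 3 genes were low, with Rdh5 at 18 to 20 reads in the control and 55 to 63 in the IL-4 libraries, Stra6l at 37 to 50 and 92 to 145, and Bco1 at 6 to 7 and 17 to 21. Rdh9 (log2 fold change 0.98, adjusted p = 0.0344 in edgeR), Adh7 (0.42, adjusted p = 0.0262) and Rdh14 (0.34, adjusted p = 0.0251) passed less firmly: their calls were lost in 8, 6 and 6 of 12 other settings, with library totals in each case. Rdh10, the main retinol dehydrogenase of the embryo, went the other way, from 6.78, 7.11 and 7.46 FPKM to 3.63, 3.87 and 4.35 FPKM, with no overlap and a log2 fold change of -0.68 (adjusted p = 0.000537 in edgeR). The other genes that fell were Scarb1 (-0.58), a lipoprotein and carotenoid receptor, Lipe (-0.32), a hormone-sensitive lipase, and Rdh11 (-0.31), of which Lipe lost its call in 6 and Rdh11 in 3 of 12 other settings. Fabp5, which can carry retinoic acid, did not pass (-0.03, adjusted p = 0.869 in edgeR).

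**Figure D4:**
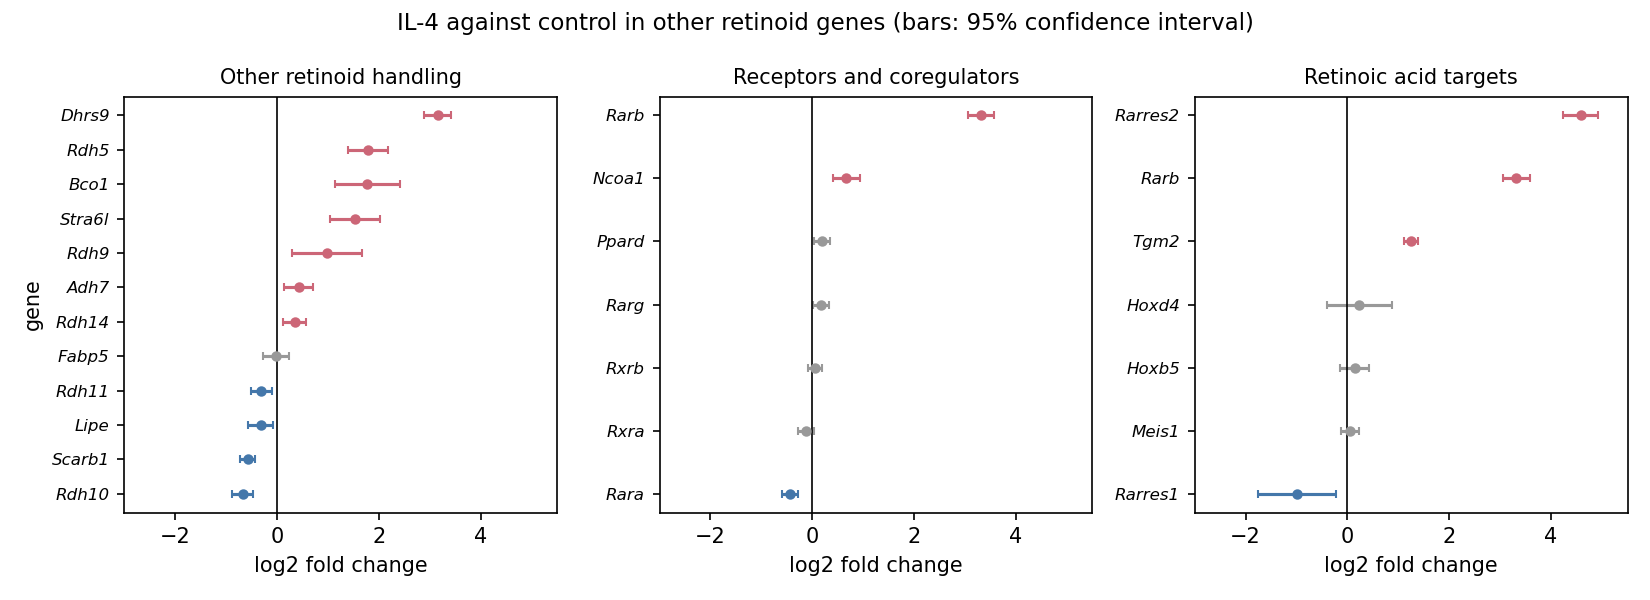
Log2 fold change with IL-4 of the other retinoid handling, receptor and coregulator, and target genes named in the text that could be tested (points, with 95% confidence intervals as bars), coloured red where higher and blue where lower at an adjusted p under 0.05 and grey otherwise. Rarres2 (4.58), Rarb (3.32) and Dhrs9 (3.15) lie farthest to the right.

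The receptors themselves did not move together. Rarb, a retinoic acid receptor whose gene is a known retinoic acid target, measured 1.16, 1.37 and 0.96 FPKM in the control cultures and 9.7, 10.57 and 10.32 FPKM in the IL-4 cultures. The groups were far apart, and the log2 fold change was 3.32 (SE 0.11, adjusted p = 4.36e-07 in edgeR). Rara fell from 12.8 ± 0.535 to 8.42 ± 0.593 FPKM (SD, n = 3 each), with a log2 fold change of -0.44 (adjusted p = 0.00154 in edgeR). Rarg, at 35.6 and 35.9 FPKM the most abundant receptor of the 3 RARs, did not pass (0.17, adjusted p = 0.0752), and its sign turned when libraries were scaled by totals. Rxra (-0.13, adjusted p = 0.198), Rxrb (0.05, adjusted p = 0.528) and Ppard, a receptor that can also bind retinoic acid (0.19, adjusted p = 0.0553), did not pass either, the sign of Rxrb turned under scaling by totals or in FPKM, and Rxrg had at most 7 reads in a library. Rxra did pass as lower in 3 of 12 other settings (-0.30, adjusted p = 0.00584 in edgeR with library totals), and Ppard passed as higher without IL-4 replicate 6 (adjusted p = 0.00822 in edgeR). Among the coregulators, Ncoa1, a coactivator of nuclear receptors, rose (0.67, adjusted p = 0.00233 in edgeR), and another coregulator fell. Of 13 receptor and coregulator genes, 12 could be tested, and 2 rose and 2 fell (edgeR, adjusted p under 0.05). Their median log2 fold change was 0.017, against 19.0% higher, 18.4% lower and a median of 0.0026 over all genes tested.

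Of 19 genes known to respond to retinoic acid, 14 could be tested, and 3 rose while 1 fell (edgeR, adjusted p under 0.05), with a median log2 fold change of 0.0038, against 19.0% higher and 18.4% lower over all genes tested. The number that fell was 3 with limma on FPKM, which called 4925 (1 added) or 4719 (0.1 added) of all 14009 genes lower. Rarres2, which encodes the secreted protein chemerin, measured 8.85, 10.51 and 12.66 FPKM in the control cultures and 202.96, 213.77 and 260.56 FPKM in the IL-4 cultures. Its groups did not overlap and its log2 fold change was 4.58 (adjusted p = 3.01e-07 in edgeR), with some of its reads shared with other genes. Tgm2, a transglutaminase, measured 29.1, 29.37 and 30.9 FPKM and then 61.58, 65.14 and 62.14 FPKM, with a log2 fold change of 1.25 (adjusted p = 1.77e-06 in edgeR). Rarb, described above, was the other gene that rose. Rarres1 was the gene that fell, with a log2 fold change of -0.99 (adjusted p = 0.0479 in edgeR), a call that was lost in 7 of 12 other settings, DESeq2 among them. Hoxd4 (0.23, adjusted p = 0.55), Hoxb5 (0.14, adjusted p = 0.42) and Meis1 (0.05, adjusted p = 0.616) did not pass in edgeR. Cyp26a1, the sister of Cyp26b1 and a well known retinoic acid target, was hit by 1, 1 and 5 reads in control replicates 1, 2 and 3 and by none in any IL-4 library.

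Depth was nearly even, at 28526779 to 28674597 rounded counts for control cultures and 28914008 to 29057784 for IL-4 cultures. The choice of scaling moved the values further. With trimmed mean (TMM) scaling 2663 genes were higher and 2582 lower with a median log2 fold change of 0.0026, whereas with library totals alone the median was -0.17 and 1704 genes were higher and 4963 lower. The leading 10 genes by count held 9.14% to 9.59% of each control library and 13.8% to 15.5% of each IL-4 library.

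Marker genes of other cells moved with the treatment too. The counts of markers called here (edgeR, adjusted p under 0.05) stand beside 19.0% higher and 18.4% lower over all genes tested. Summed over 9 AP markers, FPKM ran from 6585 to 7011 in the control and from 7428 to 8154 in the IL-4 cultures, and 6 of the 9 rose and 1 fell. Summed over 10 macrophage markers it ran from 3070 to 3934 in the control and from 1209 to 1547 in the IL-4 cultures, with 8 of 10 lower and 1, Mrc1, higher. Despite the removal of CD45-positive cells, Ptprc, which encodes CD45, had 2506 to 2798 reads in the control and 1195 to 1263 in the IL-4 libraries. Over 6 genes known to rise in macrophages after IL-4 (Arg1, Chil3 and others) the sum went from 2.49 to 8.38 in the control cultures to between 3484 and 4730 in the IL-4 cultures, and all 5 that could be tested rose. Mesothelial markers summed to 7.43 to 9.05 and then 10.63 to 12.7 FPKM, with Msln, Upk3b, Upk1b and Lrrn4 at 13 reads or fewer. Of the 7 mesothelial markers 3 could be tested, and 2 rose. Of these, 1 rose beyond a log2 fold change of 1, against 5.77% of all genes tested. Dendritic cell markers summed to 1.25 to 1.72 and then 0.93 to 1.5 FPKM. Endothelial markers went from 11.15 to 12.03 to between 9.12 and 9.98 FPKM, and the sum of mature adipocyte markers, from 32.86 to 38.75 to between 55.04 and 78.61 FPKM, was almost wholly Fabp4, while Adipoq had at most 13 reads, Plin1 at most 2, and Cidec and Lep none. Because the libraries are bulk, a change in the number of cells of a type and a change in RNA per cell cannot be told apart, and the part of macrophages, or of other cells in the cultures, in the values of the retinoid genes was not tested.

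**Figure D5:**
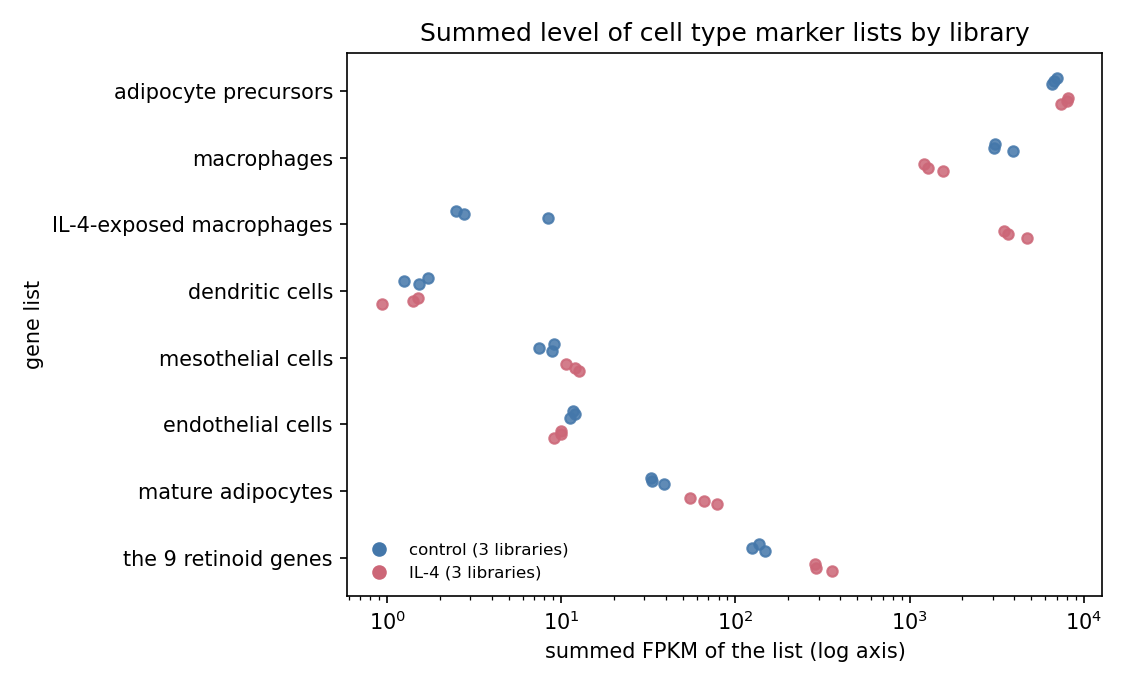
Summed FPKM (log axis) of each marker list and of the 9 retinoid genes, with 1 point for each of the 3 control (blue) and 3 IL-4 (red) libraries. The macrophage sum is lower and the sum of the IL-4-exposed macrophage genes is higher in all 3 IL-4 cultures, and the sum of the retinoid genes rises from 124 to 148 FPKM to between 285 and 357 FPKM.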

How the data were processed

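The members of the group and the gene lists were chosen with earlier results of these data known. The authors isolated poly-A RNA from the cultures, sequenced it on a BGISEQ-500 and filtered reads with SOAPnuke. HISAT, StringTie, Bowtie2 and RSEM are named in the submitters' processing notes with the genome build mm10, and their versions are not given in the sources used here. The deposited files give an expected count per gene from RSEM, not normalized, and an FPKM, which corrects for transcript length and for library size. Genes with no read are not listed in a library and were taken as 0. The expected counts were rounded to whole numbers (all counts of the 9 genes were already whole), 1 row with no gene name was left out (at most 0.00022% of counts), and 26 date-like symbols were resolved by Entrez number. Genes were filtered with filterByExpr (minimum count 10, minimum total 15), scaled by TMM and compared with edgeR 4.0.16 (R 4.3.3), by its quasi-likelihood test, and p-values were adjusted by Benjamini-Hochberg across the 14009 genes tested. A call needs an adjusted p under 0.05. The common biological coefficient of variation was 0.0939. The fold change threshold, log2 beyond 1, is that of the study. The main test differs from the DESeq2 test of the study, which is an alternative.

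The genes named are all 9 genes, the retinoid receptors, genes of the other retinoid, coregulator, target and gene ontology (GO) lists called at that threshold with a log2 fold change beyond 1, and the 3 genes nearest to the member with the largest rise among members with a mean of at least 100 normalized counts; no member that fell reached that mean. Other genes named for their values, such as Rdh10 and Scarb1, were chosen after their values were seen. Shares of the Aldh1a genes were compared by exact permutation over the 6 libraries. Alternatives were DESeq2 1.42.0, upper-quartile scaling, library totals, tests without the filter, limma 3.58.1 on the log2 of FPKM with 1 or 0.1 added, and each library left out in turn; for the other lists these were added after the data were seen. The test was tried on simulated data. Coordinates and promoter sequences come from RefSeq on GRCm38.p6, the same assembly as mm10. The protocol does not state that the strand of the RNA was kept. The 4 small RNA libraries were not used here, and some genes of the lists are counted but not reported by name. Other steps ran in Python 3.11.15 (pandas 2.3.3, numpy 2.4.6, matplotlib 3.10.9, scipy 1.17.1).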

Additional observations from a re-analysis of the deposited data

How the results depend on the processing

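The counts of 7 genes that rose and 1 that fell were the same under DESeq2, upper-quartile scaling and no filter; 6 rose under library totals, both limma settings and without control replicate 1, control replicate 2 or IL-4 replicate 5, where Cyp26b1 was lost. Of the 9 genes, 5 were higher beyond log2 1, and 3 were with library totals, with limma on log2(FPKM + 1) and with limma on log2(FPKM + 0.1), since Aldh1a1 and Dhrs3 then fell below 1. The count was 4 to 5 with 1 library left out. For other retinoid handling genes, the count of genes that rose was 4 with library totals and with limma on log2(FPKM + 1), and that of genes that fell was 7 with library totals and with both limma settings. Leaving out 1 library gave 4 to 7 that rose (4 without control replicate 1 or 2) and 2 to 5 that fell (2 without control replicate 1 or 3). Target genes that fell numbered 2 with library totals, 0 with no filter and 3 with both limma settings, and 0 to 2 with 1 library left out. Receptor and coregulator genes, at 2 that rose and 2 that fell in the main test, gave 2 to 4 that rose with 1 library left out (4 without IL-4 replicate 6). The number that fell was then 1 to 2 (1 without control replicate 1, control replicate 2 or IL-4 replicate 5), and it was 3 with library totals and both limma settings. The wider GO list, at 29 that rose and 30 that fell, gave 21 and 44 with library totals and 20 and 44, or 22 and 42, with limma after adding 1 or 0.1. Over all 14009 genes, 1704 rose and 4963 fell with library totals, and 1688 and 4925, or 1691 and 4719, with limma. The sign turned for Rarg (-0.0006 with library totals), for Rxrb (-0.12 with library totals and -0.11 with limma in both settings) and for the Aldh1a2 share difference (-0.177 percentage points without IL-4 replicate 6 and -2.34 with read counts, with -0.177 to 1.81 over the libraries left out). The causes were not tested. The alternatives for the lists were chosen after seeing the data. No paired analysis was possible because the labels number the control cultures 1 to 3 and the IL-4 cultures 4 to 6, so that no number is shared. At this depth Stra6 and other genes with few reads could not be compared.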

Other observations

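A wider list came from the GO process terms in the deposited files that name retinoic acid, retinol, retinoid or vitamin A, without the 9 genes. Of its 147 genes, 117 could be tested, of which 29 rose and 30 fell with IL-4 (edgeR, adjusted p under 0.05), with a median log2 fold change of -0.02, against 19.0% and 18.4% of all genes tested. With library totals 21 rose and 44 fell, so the even split rests on the scaling. That scaling called 1704 of all 14009 genes higher and 4963 lower. Beyond log2 1, 14 rose and 11 fell, against 5.77% higher and 5.26% lower of all genes tested. The rise was largest for Arg1, an arginase, whose log2 fold change was 9.33, with 62 to 169 reads in the control and 50213 to 68770 in the IL-4 libraries. Klf4, a transcription factor, had 2.36, and Mmp2, a collagenase, had 1.44. Aqp3 (1.39), Ret (1.20), Mill2 (1.16), Ctsh (1.10), Acer2 (1.10) and Ptges (1.07) also rose, besides Rarres2, Rarb, Dhrs9, Rdh5 and Stra6l. Among the genes that fell were Apoc2 (-3.57), Abcb4 (-2.19), Lrp2 (-1.69), Zfp536 (-1.38), Mest (-1.24), Tie1 (-1.16), Ptk7 (-1.15), Epha3 (-1.02) and Nanog (-1.01). Lrp2 encodes megalin, a known receptor for RBP4 in the kidney. Its reads went from 255 to 390 in the control to 69 to 111 in the IL-4 libraries. Reads of Nanog, Apoc2, Mest and Acer2 were in part shared with other genes. Of 12 other settings, Aqp3 kept its call in 7, Tie1 in 8 and Nanog in 5, and Nanog was lost with DESeq2 (adjusted p = 0.115) and with no filter (0.068) as well as with libraries left out.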
